A study of Bos taurus with 8 samples.

Results

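The genes described here build and run the mitotic spindle, attach chromosomes to it and condense the chromosomes, and they were followed in bovine granulosa cells before and after the surge of luteinizing hormone (LH). They were taken by gene symbol from the annotation of the array. A gene was a member if its symbol began with CENP, KIF (followed by a digit or C), BUB, AURK, PLK (followed by a digit), NDC80, NUF2, SPC24, SPC25, SMC (followed by a digit), NCAP or MAD2L, or if it was TTK, UBE2C, PRC1, TPX2, ANLN, TOP2A, MKI67, BIRC5, PTTG1, NUSAP1 or ESPL1. The array carried 131 probes for 91 such genes, among 43794 probes and 15216 named genes in all. Of the 91 genes, 85 had a probe that passed the filter on dim spots and were tested. The genes KIF24, ANLN, KIF1A, KIF5A, KIF17 and KIF2B did not pass it, and no probe carried the symbol TTK. Because the rule reads the first letters of a symbol, it also took kinesins not grouped here as mitotic, the stress-responsive kinases PLK2 and PLK3, and AURKAIP1. These are described apart.

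Granulosa cells line the wall of the ovarian follicle and divide until the LH surge, after which they leave the cell cycle and turn into luteal cells. In a dividing cell the condensin complexes compact the chromosomes, and the kinetochore, built from CENP proteins on the centromere, binds spindle microtubules through the NDC80 complex. The checkpoint proteins BUB1, BUBR1 and MAD2 hold back the anaphase-promoting complex until the chromosomes are attached, and separase then cuts cohesin.

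The study hybridised RNA of post-LH cells together with RNA of pre-LH cells on 8 2-colour arrays, of which 4 held the 6 h cells and 4 the 22 h cells. All donors were Holstein Friesian cows synchronised with a norgestomet implant and prostaglandin and stimulated with ovine FSH. The pre-LH cells came from ovaries removed 2 h before the surge and from follicles of 6 to 8 mm. GnRH had induced the surge in the other groups. The 6 h cells were taken 8 h after GnRH and came from follicles larger than 8 mm. The 22 h cells were taken 24 h after GnRH and came from pre-ovulatory follicles. Follicle class therefore changed together with time. The follicles were emptied of the cumulus-oocyte complex, opened and scraped. Per the labels this yields mostly mural cells, with some theca cells mixed in. The sources used here do not say how many cows made up a replicate. The design text gives 4 biological replicates per time, so pre-LH replicates served more than 1 array. Both times may therefore have been compared with shared pre-LH RNA. Which arrays shared it was not taken as established, and the main model held no term for it. The 6 h arrays lay on 1 slide and the 22 h arrays on the other.

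Values are log2 ratios of post-LH over pre-LH on single arrays, and fitted changes are means over 4 arrays with a standard error (SE) from 1 model of all 8 arrays. The model pools the spread of both times, so a gene has the same SE at both. For BUB1 the SD was 0.16 at 6 h and 0.55 at 22 h. In such genes the SE and adjusted p at 22 h do not show the wider spread of the 22 h arrays. A gene rose or fell where the p-value of that model, adjusted over all 38453 tested probes, was under 0.05. A gene was read from its brightest tested probe. In RNA from bulk tissue, fewer cells of a type and less RNA per cell cannot be told apart.

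The arrays of replicate 4 stood apart on both slides and in both channels. Over all probes, the log2 intensities of their 4 channels correlated with those of the other 12 channels with r from 0.848 to 0.891. Among themselves these 4 channels correlated with r from 0.965 to 0.994, and the other 12 among themselves with r from 0.956 to 0.996. Among the pre-LH channels of the other slide, each of the 8 pre-LH channels correlated best with the one of the same number. Of the 41 members that fell at 22 h, replicate 4 had the highest ratio of the 4 arrays for 32 (78%), against 44.8% of all 1499 genes that fell then. The counts of called members, in all and by role, and the calls of single members that depend on it are therefore also given without both arrays of replicate 4, a setting chosen after seeing the data that leaves 3 residual degrees of freedom in place of 5.

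**Figure D1:**
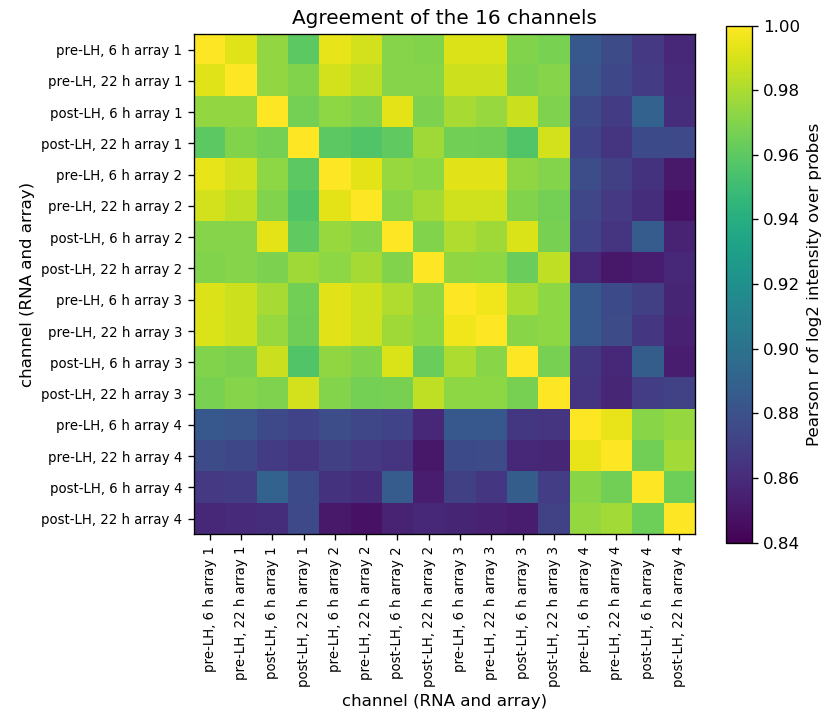
Pearson correlation (colour scale) of log2 intensity over all probes between each pair of channels, ordered by replicate number; both axes list the RNA and array of a channel. The 4 channels of replicate 4 form a block of their own, with r from 0.848 to 0.891 to all other channels.

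At 6 h, 37 of the 85 members fell and 3 rose. Among all 14138 tested genes 12.8% fell and 11.5% rose, while 43.5% and 3.53% of the members did. The median fitted change was -0.31 over the members and -0.004 over all tested genes, on the log2 scale. The falls were mostly small: 2 members, NUSAP1 and SMC6, were called and at least 2-fold lower, against 1.8% of all genes. All 4 arrays were below 0 for 51 members, and for 21% of all genes.

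At 22 h, 41 members fell and 2 rose. These were 48.2% and 2.35% of the members, beside 10.6% and 9.75% of all tested genes. The median fitted change of the members was -0.34, and that of all tested genes 0.006. The members' median was lower, at -0.512 with no background correction, at -0.516 with background from the negative controls and at -0.560 in the authors' deposited ratios. It was nearer 0, at -0.264, with the mean of a gene's probes and also with no filter on dim probes. Without 22 h replicate 3 it was -0.265. Now 27 members, or 31.8%, were called and at least 2-fold lower, against 2% of all genes. All 4 arrays were below 0 for 45 members, and for 17.7% of all genes. Both times showed a fall in 30 members (35.3%), against 4.94% of all genes. The comparisons may rest on shared pre-LH RNA and then are not independent.

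Without replicate 4, 38 members fell and 3 rose at 6 h, beside 8.78% and 8.51% of all genes, and 42 fell and 2 rose at 22 h, beside 9.03% and 6.67%. Of the calls made with all arrays, 33 of 40 at 6 h and 42 of 43 at 22 h were among these. By role, the falls at 6 h and 22 h without replicate 4 were 8 and 10 in the CENP genes, 3 and 4 in the NDC80 complex, 4 and 4 in the spindle checkpoint, 3 and 3 in the mitotic kinases, 8 and 8 in the mitotic kinesins, 6 and 6 in the midzone and anaphase genes, 4 and 6 in condensin, 1 and 1 in cohesin and SMC5/6, and 1 and 0 in the other kinesins. The counts of 2-fold falls, of falls at both times and of the other gene lists rest on all arrays.

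The 6 h count depended on single arrays, with 19, 17, 22 and 22 called members when 6 h replicate 1, 2, 3 or 4 was left out. The share of all genes called dropped as well, to 13.9%, 13.7%, 19.9% and 17.1%, from 24.3% with all arrays. Background taken from the negative controls gave 23 calls at 6 h, and on its own slide the 22 h contrast called 12 members. Centring each array on its median in place of loess left 1 called member at 6 h (PLK2) and 0 at 22 h in limma, with 27 and 46 members at an unadjusted p under 0.05, and it left 70 and 121 genes called in the whole table.

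**Figure D2:**
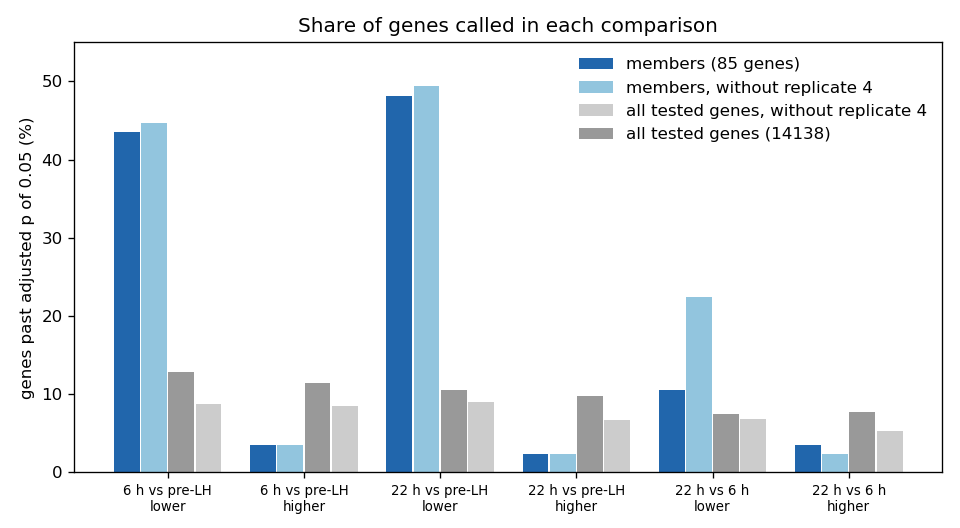
Percent of genes past an adjusted p of 0.05 (vertical axis) in each comparison and direction, for the 85 members and for all 14138 tested genes, with all arrays and without both arrays of replicate 4. Members were called lower than pre-LH in 43.5% at 6 h and 48.2% at 22 h, against 12.8% and 10.6% of all genes.

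**Figure D3:**
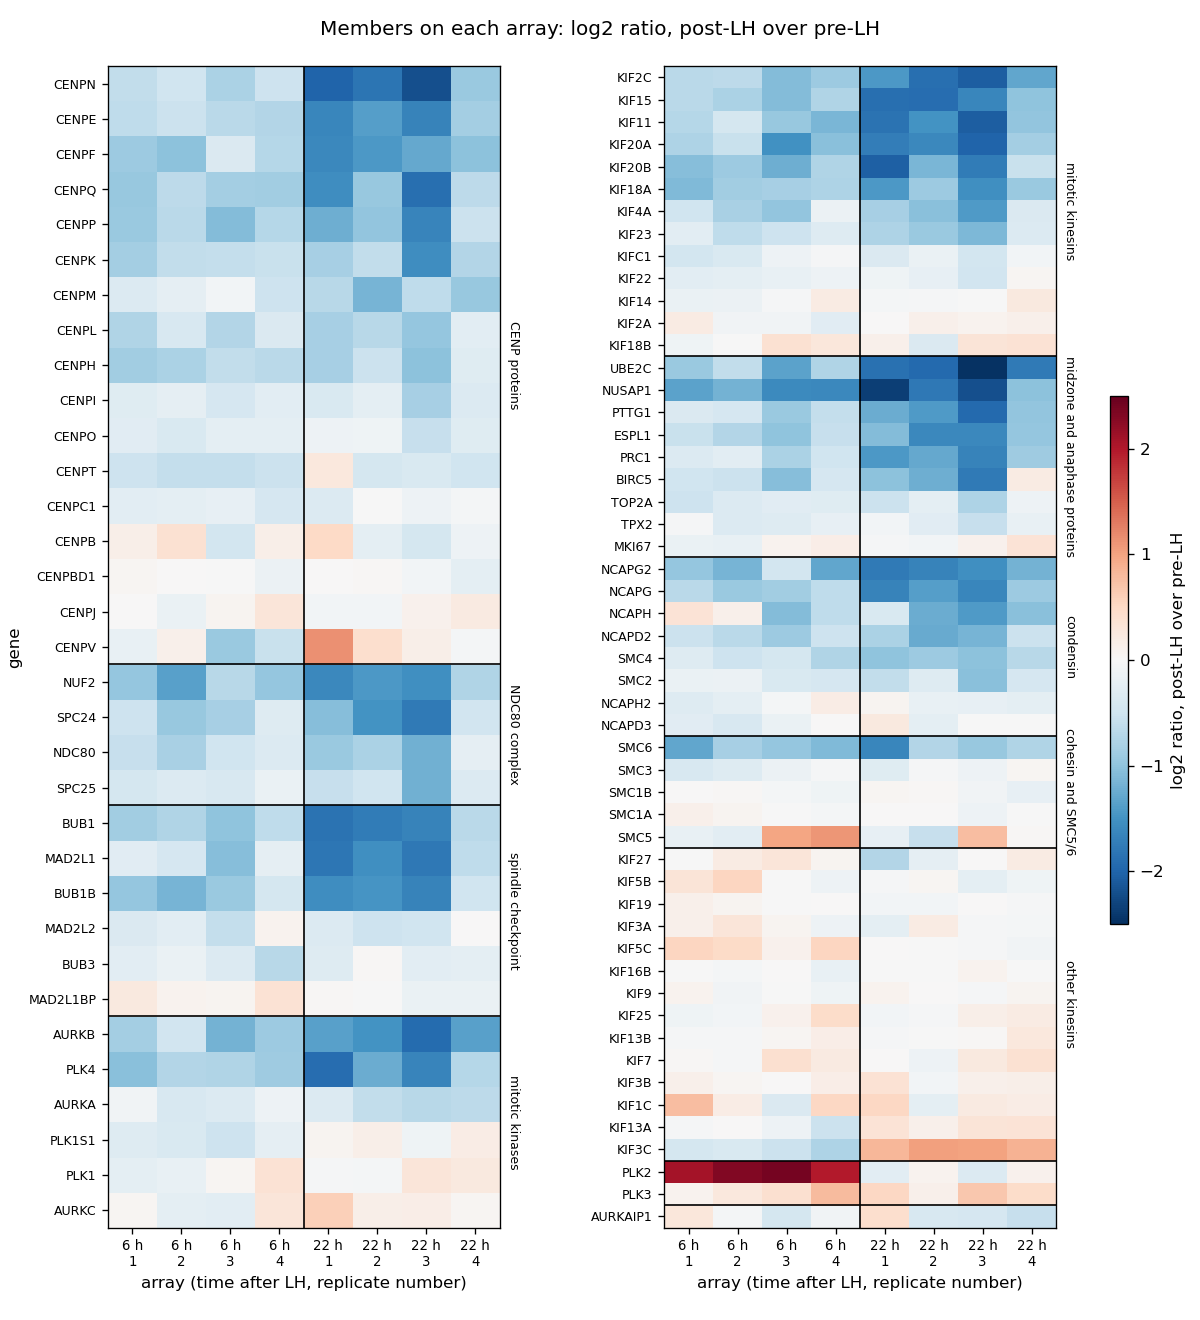
Log2 ratio of post-LH over pre-LH (colour scale) of the 85 tested members (rows, by role and then by the 22 h change) on each of the 8 arrays (columns). The blue rows are deepest at 22 h in replicates 1 to 3, and most rows of the other kinesins are near white on all arrays.

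Of the 17 CENP genes tested, 11 fell at 6 h and 10 at 22 h, 8 of them at both. CENPF encodes a large kinetochore protein that accumulates late in the cell cycle. Its log2 ratios were -0.90, -1.03, -0.36 and -0.72 on the 4 arrays at 6 h and -1.61, -1.44, -1.29 and -1.03 at 22 h. All arrays were low, and the times touched, since replicate 2 at 6 h and replicate 4 at 22 h had the same rounded value. The fitted level was 1.69-fold below pre-LH at 6 h (change -0.76, SE 0.07, adjusted p = 0.000763) and 2.54-fold below at 22 h (change -1.34, SE 0.07, adjusted p = 8.82e-05).

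CENPE, a kinesin motor at the kinetochore that moves chromosomes to the spindle equator, had ratios of -0.63, -0.53, -0.68 and -0.74 at 6 h and of -1.64, -1.37, -1.68 and -0.86 at 22 h. The 22 h arrays were all below the 6 h arrays, with replicate 4 the least low of them. CENPE was 1.56-fold lower at 6 h (adjusted p = 0.0154) and 2.61-fold lower at 22 h (adjusted p = 0.000821). CENPN, a reader of the centromeric nucleosome, had ratios of -0.62, -0.49, -0.80 and -0.52 at 6 h and of -2.00, -1.82, -2.19 and -0.93 at 22 h. Here too the times did not overlap, and replicate 4 was again the least low at 22 h. Its 3.33-fold fall at 22 h passed the test (change -1.73, SE 0.19, adjusted p = 0.00149), and its change of -0.61 at 6 h did not (adjusted p = 0.0723, and 0.0044 without replicate 4). The second tested probe for CENPN was not called at 22 h.

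The other CENP genes that fell at both times were CENPQ, CENPP, CENPK, CENPL, CENPH and CENPI, subunits of the network that sits on the centromere throughout the cell cycle. Their fitted changes at 22 h lay between -1.26 for CENPQ and -0.45 for CENPI. CENPM fell at 22 h (-0.86), while CENPO, CENPT and CENPC1 (now CENPC) fell at 6 h by 0.29, 0.56 and 0.29 on the log2 scale and did not pass at 22 h. Without replicate 4 the 6 h calls of CENPK, CENPO, CENPT and CENPC1 were lost, with adjusted p from 0.058 to 0.11. CENPB, CENPBD1, CENPJ and CENPV did not pass against pre-LH at either time. CENPB binds a repeat in centromeric DNA, and CENPJ acts in centriole growth.

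All 4 genes of the NDC80 complex fell at 22 h, and NUF2 and NDC80 fell at 6 h as well. NUF2 had ratios of -0.96, -1.35, -0.70 and -0.96 at 6 h and of -1.61, -1.43, -1.53 and -0.75 at 22 h. Replicates 1 to 3 at 22 h were lower than any 6 h array, and replicate 4 lay within the 6 h range. The fitted level was 1.99-fold lower at 6 h (adjusted p = 0.00253) and 2.52-fold lower at 22 h (adjusted p = 0.000896). SPC24 had ratios of -0.53, -0.95, -0.83 and -0.32 at 6 h and of -1.07, -1.49, -1.77 and -0.47 at 22 h, where replicate 4 alone lay within the 6 h range. Its 22 h change of -1.20 passed (SE 0.21, adjusted p = 0.00983) and its 6 h change of -0.66 did not (adjusted p = 0.074, and 0.029 without replicate 4). For NDC80 itself the ratios were -0.58, -0.81, -0.49 and -0.34 at 6 h and -0.94, -0.78, -1.20 and -0.23 at 22 h. They overlapped between the times, and the fitted falls were 1.47-fold (adjusted p = 0.0361) and 1.72-fold (adjusted p = 0.0119). SPC25 fell at 22 h (-0.65, adjusted p = 0.0191).

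Among 6 spindle checkpoint genes, BUB1, BUB1B and BUB3 fell at 6 h and BUB1, BUB1B and MAD2L1 at 22 h. The kinase gene BUB1 had ratios of -0.86, -0.76, -1.02 and -0.63 at 6 h and of -1.85, -1.75, -1.67 and -0.67 at 22 h. At 22 h the array of replicate 4 stood far above the other 3 and within the 6 h range. BUB1 was 1.76-fold lower at 6 h (adjusted p = 0.018) and 2.80-fold lower at 22 h (change -1.49, SE 0.17, adjusted p = 0.00191). BUB1B, which encodes BUBR1, had ratios of -0.96, -1.16, -0.93 and -0.44 at 6 h and of -1.55, -1.47, -1.67 and -0.50 at 22 h, and fell 1.83-fold (adjusted p = 0.0153) and 2.46-fold (adjusted p = 0.00367). It showed the same pattern, with replicates 1 to 3 at 22 h below every 6 h array.

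MAD2L1 encodes MAD2, which binds and blocks CDC20 at unattached kinetochores. Its ratios were -0.28, -0.42, -1.06 and -0.23 at 6 h and -1.82, -1.53, -1.79 and -0.64 at 22 h. Replicates 1 to 3 at 22 h were below every 6 h array. The 22 h fall was 2.72-fold (adjusted p = 0.00618), and the 6 h change of -0.50 did not pass (adjusted p = 0.192, and 0.034 without replicate 4). BUB3 fell by 0.37 at 6 h on the log2 scale, a call that was lost without replicate 4 (adjusted p = 0.087). MAD2L2, whose protein REV7 acts mainly in DNA repair, had fitted changes of -0.28 and -0.34 that did not pass with all arrays (adjusted p = 0.181 and 0.128) and passed without replicate 4 (0.019 and 0.014). MAD2L1BP was not called at either time.

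**Figure D4:**
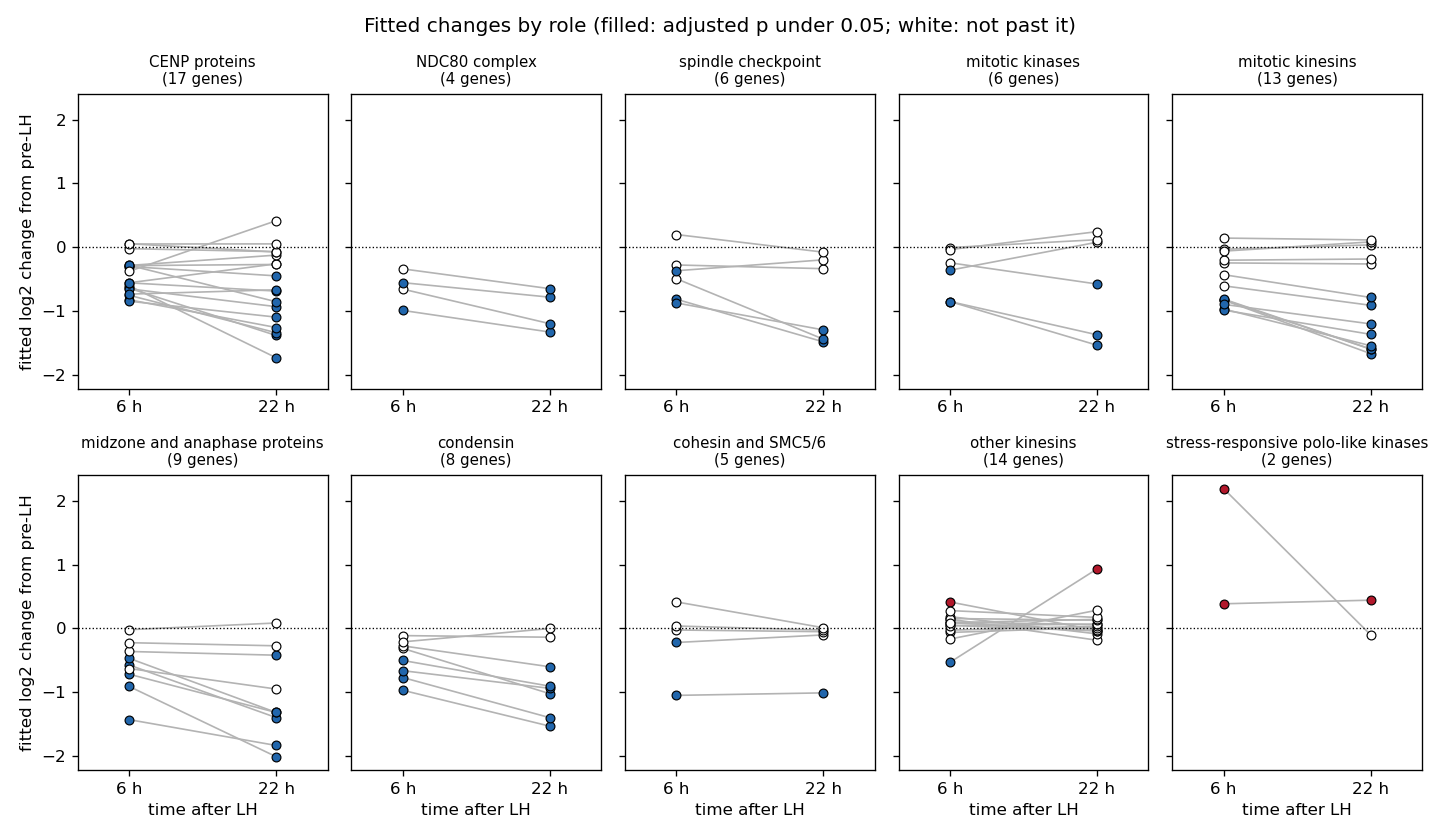
Fitted log2 change from pre-LH (vertical axis) of each tested member at 6 h and 22 h (horizontal axis), 1 panel per role, with a grey line per gene; AURKAIP1 is not drawn. Filled points passed an adjusted p of 0.05 (blue fell, red rose) and white points did not. All 4 NDC80 complex genes are blue at 22 h, and PLK2 at 6 h is the highest point.

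The group of mitotic kinases held AURKA, AURKB, AURKC, PLK1, PLK4 and, by its symbol, PLK1S1 (now KIZ), a centrosomal substrate of PLK1. AURKB is the kinase of the chromosomal passenger complex, which corrects faulty attachments. Its ratios were -0.84, -0.48, -1.17 and -0.92 at 6 h and -1.36, -1.50, -1.93 and -1.37 at 22 h, so that every 22 h array was below every 6 h array. AURKB was 1.81-fold lower at 6 h (adjusted p = 0.00205) and 2.90-fold lower at 22 h (change -1.54, SE 0.10, adjusted p = 0.000213). One of its 3 tested probes was called. PLK4, the kinase that starts centriole duplication, had ratios of -1.05, -0.72, -0.76 and -0.88 at 6 h and of -1.91, -1.23, -1.65 and -0.71 at 22 h. It fell 1.81-fold (adjusted p = 0.0147) and 2.59-fold (adjusted p = 0.00253), and replicate 4 at 22 h was as high as the 6 h arrays.

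AURKA, which acts at centrosomes and spindle poles, had ratios of -0.09, -0.41, -0.35 and -0.14 at 6 h and of -0.34, -0.62, -0.70 and -0.65 at 22 h. The times overlapped, and its fall was small, 1.49-fold at 22 h (adjusted p = 0.00302), and its 6 h change of -0.25 did not pass (adjusted p = 0.0668). PLK1S1 went the other way in time, with ratios of -0.33, -0.38, -0.51 and -0.23 at 6 h and of 0.08, 0.15, -0.10 and 0.18 at 22 h. The times did not overlap. It fell 1.29-fold at 6 h (adjusted p = 0.00795), and its 22 h change of 0.08 did not pass. PLK1, the main mitotic polo-like kinase, had fitted changes of -0.01 and 0.12, and AURKC of -0.04 and 0.24, and neither gene was called.

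Of 13 kinesins with roles in mitosis, 6 fell at 6 h and 8 at 22 h, the 6 among the 8. KIF2C, a depolymerase of microtubule ends at the centromere, had ratios of -0.68, -0.66, -1.09 and -0.90 at 6 h and of -1.43, -1.88, -2.06 and -1.30 at 22 h. The times did not overlap, and KIF2C was 1.78-fold lower at 6 h (adjusted p = 0.00597) and 3.18-fold lower at 22 h (change -1.67, SE 0.13, adjusted p = 0.000394). KIF15, which helps to keep the spindle bipolar, had ratios of -0.67, -0.80, -1.08 and -0.76 at 6 h and of -1.88, -1.90, -1.63 and -1.0 at 22 h. Only replicate 4 at 22 h reached the 6 h range, and the fitted falls were 1.77-fold (adjusted p = 0.00853) and 3.03-fold (adjusted p = 0.00067). KIF18A limits the swings of chromosomes at metaphase. Its ratios, -1.11, -0.88, -0.83 and -0.78 at 6 h and -1.43, -0.92, -1.53 and -0.94 at 22 h, overlapped between the times, with falls of 1.86-fold (adjusted p = 0.00288) and 2.30-fold (adjusted p = 0.00102).

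KIF11, the motor that pushes the poles apart, and KIF20A and KIF20B, which act in cytokinesis, also fell at both times, with fitted changes at 22 h of -1.60, -1.55 and -1.37. KIF4A and KIF23 fell at 22 h by 0.91 and 0.79 on the log2 scale, and at 6 h their adjusted p was 0.0749 and 0.0554 (0.0083 and 0.034 without replicate 4). KIFC1, KIF22, KIF14, KIF2A and KIF18B were not called at either time.

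Among 9 genes of the spindle midzone, of anaphase and of mitotic chromatin, 5 fell at 6 h and 6 at 22 h, the 5 among the 6. UBE2C is the ubiquitin-conjugating enzyme of the anaphase-promoting complex. Its ratios were -0.94, -0.62, -1.33 and -0.75 at 6 h and -1.86, -1.95, -2.46 and -1.78 at 22 h. The groups were far apart, and replicate 4 was close to the others. UBE2C was 1.88-fold lower at 6 h (adjusted p = 0.00417) and 4.03-fold lower at 22 h (change -2.01, SE 0.13, adjusted p = 0.000192), the largest fitted fall among the members at 22 h. PRC1, which bundles microtubules of the midzone, had ratios of -0.33, -0.26, -0.78 and -0.50 at 6 h and of -1.43, -1.28, -1.67 and -0.89 at 22 h. The times did not overlap, and the falls were 1.38-fold (adjusted p = 0.0488) and 2.49-fold (adjusted p = 0.00102).

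ESPL1, the gene of separase, had ratios of -0.56, -0.73, -1.0 and -0.58 at 6 h and of -1.09, -1.61, -1.61 and -0.97 at 22 h. Replicate 4 at 22 h was just inside the 6 h range, and ESPL1 fell 1.65-fold (adjusted p = 0.0109) and 2.49-fold (adjusted p = 0.00108). PTTG1, the gene of the separase inhibitor securin, fell 1.49-fold at 6 h (adjusted p = 0.0369) and 2.64-fold at 22 h (adjusted p = 0.0013), and both of its probes were called at both times. NUSAP1, a microtubule-bundling protein, had the largest fitted fall of the members at 6 h (2.70-fold, adjusted p = 0.00427) and was 3.57-fold lower at 22 h (adjusted p = 0.0018), while its second probe had changes of 0.03 and -0.06.

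BIRC5, the gene of survivin, had ratios of -0.50, -0.54, -1.05 and -0.42 at 6 h and of -1.03, -1.22, -1.77 and 0.21 at 22 h. The array of replicate 4 at 22 h was above 0 while the other 3 were at -1.03 or lower. With all arrays its changes of -0.63 and -0.95 did not pass (adjusted p = 0.212 and 0.0817), and without replicate 4 they did (adjusted p = 0.0031 and 0.00099). Its second, dimmer probe fell at both times with all arrays, by 0.49 and 0.88 on the log2 scale (adjusted p = 0.044 and 0.00542). TOP2A fell at 22 h by 0.42 on the log2 scale (adjusted p = 0.0412, and 0.052 without replicate 4). MKI67, the gene of the proliferation antigen Ki-67, had fitted changes of -0.02 and 0.08, and TPX2, which activates AURKA, of -0.22 and -0.27, and neither was called.

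In condensin, 4 of 8 genes fell at 6 h and 6 at 22 h, the 4 among the 6. NCAPG2, a condensin II subunit, had ratios of -0.97, -1.16, -0.45 and -1.30 at 6 h and of -1.77, -1.66, -1.53 and -1.17 at 22 h, so that replicate 4 at 22 h lay within the 6 h range. It was 1.96-fold lower at 6 h (adjusted p = 0.00324) and 2.89-fold lower at 22 h (adjusted p = 0.000576). NCAPG, its counterpart in condensin I, had ratios of -0.67, -0.92, -0.87 and -0.63 at 6 h and of -1.68, -1.38, -1.63 and -0.91 at 22 h. Its falls were 1.71-fold (adjusted p = 0.00606) and 2.64-fold (adjusted p = 0.000604), and again replicate 4 at 22 h was the one array within the 6 h range. SMC4, a core ATPase of both condensins, had ratios of -0.32, -0.51, -0.43 and -0.76 at 6 h and of -1.0, -0.91, -1.02 and -0.70 at 22 h, and replicate 4 at 22 h was once more within the 6 h range. The falls were 1.42-fold (adjusted p = 0.00674) and 1.87-fold (adjusted p = 0.000712). NCAPD2 fell at both times, and NCAPH and SMC2 at 22 h. Only 1 of 2 tested probes of NCAPH and 1 of 3 of SMC2 was called. The highest 22 h change among the probes was 0.05 for NCAPH and 0.11 for SMC2. The condensin II genes NCAPH2 and NCAPD3 were not called, with fitted changes at 22 h of -0.14 and -0.002.

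The 5 genes of cohesin and of the SMC5/6 complex had median fitted changes of -0.03 and -0.05, which were the values of SMC1B. SMC1B and SMC1A were dim, with mean log2 intensities of 7.00 and 7.17 beside a median of 6.88 for the negative control spots. SMC6, of the complex that resolves joined DNA molecules, had ratios of -1.30, -0.83, -0.97 and -1.11 at 6 h and of -1.64, -0.73, -0.94 and -0.74 at 22 h. The times overlapped, and SMC6 was about as low at both, 2.07-fold at 6 h (adjusted p = 0.00394) and 2.02-fold at 22 h (adjusted p = 0.00544). SMC3, of the cohesin ring, had ratios of -0.39, -0.32, -0.15 and -0.03 at 6 h and of -0.31, -0.02, -0.12 and 0.04 at 22 h. Its 1.17-fold fall at 6 h passed (adjusted p = 0.0406) and was lost without replicate 4 (adjusted p = 0.083). SMC5, the partner of SMC6, had ratios of -0.18, -0.26, 0.99 and 1.11 at 6 h and of -0.20, -0.57, 0.77 and 0.03 at 22 h. Its values at 6 h split by dye, since post-LH RNA was in Cy5 on replicates 1 and 2 and in Cy3 on replicates 3 and 4, and it was not called with all arrays (adjusted p = 0.0792 and 0.975). At 6 h it passed without replicate 4 (adjusted p = 0.048). SMC1A and SMC1B were not called.

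The 14 other kinesins, those not grouped as mitotic, had median fitted changes of 0.09 at 6 h and 0.05 at 22 h. Of these, 12 had no call in any comparison. Several were dim, such as KIF9, KIF19, KIF13B and KIF16B, with mean log2 intensities of 7.06, 7.12, 7.17 and 7.25. The negative control spots had a median of 6.88. Others, such as KIF1C and KIF3B, were brighter (10.4 and 13.3). KIF3C, a motor subunit of the kinesin-2 family, had ratios of -0.44, -0.38, -0.53 and -0.78 at 6 h and of 0.83, 1.03, 1.01 and 0.86 at 22 h. All 6 h arrays were below 0 and all 22 h arrays above it. KIF3C was 1.45-fold lower at 6 h (adjusted p = 0.00199) and 1.91-fold higher at 22 h (change 0.93, SE 0.06, adjusted p = 0.000233). It was the one member called in opposite directions at the 2 times, against 2.35% of all genes. KIF5C, a heavy chain of kinesin-1, had ratios of 0.54, 0.47, 0.11 and 0.53 at 6 h and of 0.01, -0.01, -0.04 and -0.09 at 22 h. It rose 1.33-fold at 6 h (adjusted p = 0.00592), with replicate 3 far below the other 3 arrays, and its mean log2 intensity of 7.1 was close to that of the negative control spots.

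PLK2 and PLK3 are induced by growth signals and stress in many cell types. PLK2 had ratios of 2.08, 2.31, 2.39 and 1.98 at 6 h and of -0.26, 0.08, -0.34 and 0.11 at 22 h. The 6 h arrays were all high and the 22 h arrays lay on both sides of 0. PLK2 was 4.56-fold higher at 6 h (change 2.19, SE 0.10, adjusted p = 5.48e-05), the largest fitted change of any member, and its 22 h change of -0.10 did not pass (adjusted p = 0.604). PLK3 had ratios of 0.09, 0.26, 0.40 and 0.79 at 6 h and of 0.51, 0.12, 0.68 and 0.46 at 22 h. All were above 0, and the fitted rises were 1.31-fold (adjusted p = 0.0276, and 0.11 without replicate 4) and 1.36-fold (adjusted p = 0.0196). The second tested probe of PLK3 had changes of -0.05 and 0.01 and was not called. AURKAIP1, which encodes a protein that binds AURKA and a component of mitochondrial ribosomes, was not called.

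**Figure D5:**
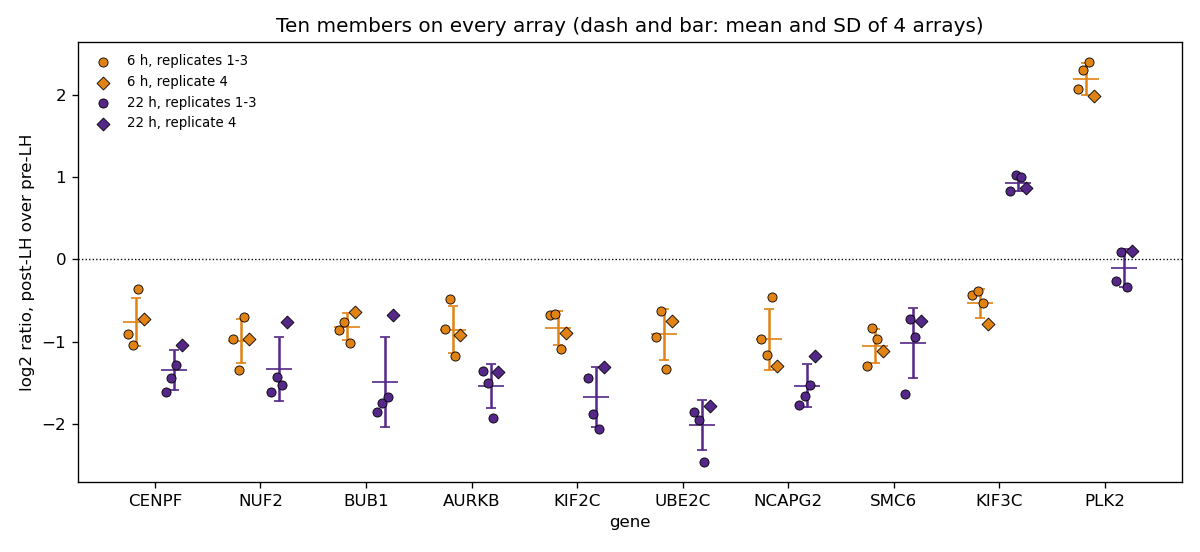
Log2 ratio of post-LH over pre-LH (vertical axis) on each array for 10 members (horizontal axis), at 6 h (orange) and 22 h (purple); circles are replicates 1 to 3, diamonds replicate 4, and the dash and bar give the mean and SD of 4 arrays. At 22 h the diamond is well above the circles for BUB1 and NUF2, while KIF3C and PLK2 separate fully by time.

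Between 22 h and 6 h, 9 members were lower and 3 higher with all arrays. These were 10.6% and 3.53% of the members beside 7.41% and 7.72% of all tested genes. With all arrays these shares were close to the background. Time, slide and follicle class cannot be told apart in this comparison. The members lower at 22 h were PLK2 (4.89-fold, adjusted p = 0.000371), UBE2C (2.15-fold, adjusted p = 0.0125), CENPF (1.5-fold, adjusted p = 0.0129), KIF5C (1.36-fold, adjusted p = 0.026), AURKB (1.61-fold, adjusted p = 0.0299), PRC1 (1.80-fold, adjusted p = 0.0306), KIF2C (1.79-fold, adjusted p = 0.033), CENPN (2.19-fold, adjusted p = 0.0415) and CENPE (1.67-fold, adjusted p = 0.0481). Those higher were KIF3C (2.76-fold, adjusted p = 0.000355), PLK1S1 (1.36-fold, adjusted p = 0.0228) and CENPV (1.73-fold, adjusted p = 0.0314).

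Without replicate 4, 19 members (22.4%) were lower and 2 (2.35%) higher at 22 h, beside 6.87% and 5.3% of all genes. The share lower was then well above the background. Of the 12 calls, 10 were among them. The calls of KIF5C and CENPV were lost (adjusted p = 0.070 and 0.083), and BIRC5, BUB1, BUB1B, KIF11, KIF15, KIF20A, MAD2L1, NCAPG, NCAPG2, PTTG1 and SMC4 were added, all lower at 22 h. Leaving out 22 h replicate 4 alone also gave 21 calls, beside 13.7% of all genes. The count of 85 members fell to 4 without 6 h replicate 1 and to 3 without 6 h replicate 2. It was 6 without 22 h replicate 2, 5 without 22 h replicate 3 and 5 with background from the negative controls. In these settings, in this order, 9.39%, 8.4%, 12.7%, 9.13% and 8.8% of all genes were called, against 15.1% in the main fit. The calls of PLK2, KIF3C and CENPF were made whichever single array was left out. Of all members, 61 had a lower fitted value at 22 h than at 6 h. The arrays of the times did not overlap, with 22 h below, for 11 members, against 8.49% of all genes, and with 22 h above for 4, against 9.55%.

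Calls were most frequent among bright probes, for the members as for all genes. When all tested genes were split at their median intensity, 36 of 56 brighter members fell at 22 h, against 18.4% of all brighter genes. Of the dimmer members 5 of 29 fell, against 2.82% of all dimmer genes. At 6 h these counts were 33 of 56 and 4 of 29, against 21.3% and 4.3%. Of the 33 members with no call in any comparison, 21 had a mean log2 intensity below 8, against 7 of the 52 called members. The negative control spots had a median of 6.88. MKI67, PLK1 and TOP2A were among the dim members, at 7.37, 7.19 and 7.52. Among 20 members with several tested probes, the brightest was called in 8 at 6 h and in 9 at 22 h. In PTTG1 alone of these, every other probe was called the same way. No probes of 1 member were called in opposite directions.

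Other mitotic genes were read from 5 lists, whose median fitted changes at 6 h and 22 h were -0.28 and -0.27 (kinetochore and centromere), -0.27 and -0.27 (spindle and cytokinesis), -0.18 and -0.02 (cohesin and condensin regulators), -0.18 and -0.23 (anaphase-promoting complex) and -0.01 and -0.02 (regulators of the programme). Beside the counts of each list stand the shares of all tested genes. Of these 12.8% fell and 11.5% rose at 6 h, and 10.6% fell and 9.75% rose at 22 h. Of 24 other kinetochore and centromere genes, 11 fell and 1 rose at 6 h, and 10 fell and 1 rose at 22 h. MIS18A, which helps to load the centromeric histone, changed by -0.81 and -1.66 (adjusted p = 0.0013 and 8.8e-05). CDCA8, the borealin subunit of the AURKB complex, changed by -0.79 and -1.41 (adjusted p = 0.003 and 0.00032). DSN1 and ZW10 also fell at both times and NUP37 at 6 h, and HJURP, the chaperone of the centromeric histone, rose at both (0.29 and 0.21).

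Of 41 other spindle and cytokinesis genes, 19 fell and 4 rose at 6 h, and 17 fell and 2 rose at 22 h. DLGAP5 (-0.94 and -1.33) and the microtubule polymerase gene CKAP5 (-0.65 and -0.55) fell at both times. TROAP fell at 22 h (-1.26), TACC1 rose at both times (0.89 and 1.41), and the kinase gene NEK6 rose at 6 h (0.54) and fell at 22 h (-0.99). Of 17 other cohesin and condensin regulators, 8 fell and 2 rose at 6 h, and 3 fell at 22 h. RAD21, the cleaved subunit of cohesin, fell by 1.36 on the log2 scale at 6 h (adjusted p = 0.0024) and had a change of -0.35 at 22 h that did not pass. TOP2B and NSMCE4A fell at 6 h, and ESCO2 (-1.08 and -1.71) and SMCHD1 (-0.43 and -0.27) fell at both times.

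In the anaphase-promoting complex and its activators, 5 of 17 genes fell and 3 rose at 6 h, and 6 fell and 3 rose at 22 h. ANAPC13 and ANAPC10 fell at both times, ANAPC1 rose at both (1.19 and 0.64), ANAPC4 fell and then rose (-0.67 and 0.27), and UBE2S, which extends the ubiquitin chains begun by UBE2C, fell at 22 h (-1.10, adjusted p = 0.0008). Of 13 regulators of the mitotic gene programme, 2 fell and 1 rose at 6 h, and 2 fell and 3 rose at 22 h. Among all tested genes 12.8% fell and 11.5% rose at 6 h, and 10.6% fell and 9.75% rose at 22 h. TFDP1, the partner of E2F proteins, fell at 22 h (-0.63), E2F5 rose at both times (0.35 and 0.54), RBL2, a pocket protein of the repressive DREAM complex, fell at 6 h (-0.46) and rose at 22 h (0.85), MYBL2 fell at both (-0.23 and -0.24), and TFDP2 rose at 22 h (0.24).

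Markers of cell types were read in the same fit, in which 12.8% and 10.6% of all genes fell and 11.5% and 9.75% rose at 6 h and 22 h. The median fitted changes at these times were -0.58 and -0.24 for granulosa markers and -0.69 and -1.16 for theca markers. They were 0.12 and -0.24 for endothelial, 0.07 and -0.03 for leukocyte and -0.005 and -0.004 for oocyte markers. The cells expressed granulosa genes, of which 11 of 12 were detected in every channel. Of these 12, 7 fell and 1 rose at 6 h, and 5 fell and 2 rose at 22 h, and their summed level ranged over single channels from 121607 to 140023 before LH, from 96731 to 132036 at 6 h and from 44218 to 122765 at 22 h (normalised intensity, arbitrary units). Of 8 theca markers, which include STAR and LHCGR that granulosa cells also express, 6 fell and 1 rose at 6 h and 8 fell at 22 h. Their summed level ranged from 55630 to 60532 before LH, from 27133 to 44708 at 6 h and from 25106 to 31231 at 22 h. Of 8 endothelial markers, 1 fell and 1 rose at 6 h and 4 fell at 22 h, and of 9 leukocyte markers 3 rose at 6 h and 1 fell at 22 h. Of 8 oocyte markers, 1 rose at 6 h (DAZL). The ranges of their summed levels were 10300 to 21014, 10598 to 18401 and 7375 to 16473 for the endothelial list, 2222 to 3972, 2485 to 4003 and 2033 to 5127 for the leukocyte list, and 1150 to 1232, 1222 to 1288 and 1150 to 1196 for the oocyte list, before LH, at 6 h and at 22 h. Only markers that passed the filter on dim spots were read, so none of them could be below the detection limit in all channels. The filter kept 9 of 10 leukocyte and 8 of 10 oocyte markers on the array. The part of these shifts in the members' changes was not tested.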

How the data were processed

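Per the file headers, the authors' deposited scanner files gave raw intensity of each spot and of its local background in Cy3 and Cy5. RNA had been amplified and labelled chemically, per the labels' protocols. The authors' deposited log2 ratios served as an alternative; against the scanner values they correlated with r from 0.822 to 0.906, with slopes of 1.07 to 1.26, and their scale (log2, post-LH over pre-LH, centred near 0) was read from this, since it is not given in the sources used here.

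Background was corrected by normexp (offset 50) and ratios were normalised by loess within arrays in limma 3.58.1 (R 4.3.3). A probe was tested if, in at least 1 group of RNA, a share of 0.5 or more of its arrays lay above the 95th percentile of 153 negative controls, which left 38453 probes and 14138 genes. One lmFit and eBayes model of all 8 arrays held both times and a common dye effect, with 5 residual degrees of freedom, a prior of 1.94 and Benjamini-Hochberg adjustment. Symbols came from the platform annotation (21790 probes with 1 symbol, 22004 with none). The number of arrays limits the precision, and 75.1% to 85.4% of probes were detected per channel.

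Values on every array are given, per role, for up to 3 members with the lowest adjusted p, and for members called against most of their role; others are named by their call. SMC5, BIRC5 and PLK1S1 were added after their values were seen. Of each list the 5 genes with the lowest adjusted p are named; HJURP was added for rising. The members and lists were chosen with earlier results of these data known. The fit was tested on simulated data. Alternatives covered normalization, background, filters, dye, replicate and slide terms, probes per gene and leaving out arrays. No sequences were printed, and promoter motifs were not analysed here.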

Additional observations from a re-analysis of the deposited data

Results flagged for a closer look

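For 12 members the change from pre-LH differed between the times, by the test of the difference itself (22 h minus 6 h, log2 scale): CENPN (-1.13), CENPE (-0.74), CENPF (-0.59), UBE2C (-1.10), PRC1 (-0.85), AURKB (-0.68), KIF2C (-0.84), KIF5C (-0.45), PLK2 (-2.29), CENPV (0.79), PLK1S1 (0.44) and KIF3C (1.46). Slide and time cannot be told apart in these differences.

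In 7 of 170 sets of 4 arrays (4.12%) 1 array stood far from the other 3, and chance alone gives about 1 in 20. BUB1 at 22 h was -0.67 on replicate 4 and between -1.85 and -1.67 on the others. KIF5C at 6 h was 0.11 on replicate 3 and between 0.47 and 0.54 on the others. CENPT at 22 h was 0.27 on replicate 1 and between -0.51 and -0.38 on the others. The other 4 were kinesins with small values at 22 h: KIF14 on replicate 4 (0.24), KIF13B on replicate 4 (0.27), KIF16B on replicate 3 (0.0814) and KIF13A on replicate 2 (0.13).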

How the results depend on the processing

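Of 151 called changes of single genes, 0 turned direction under any alternative that was run, and the direction and threshold held for 2462 of 2994 recomputed values; 149 of the losses came with median centring. The main counts of called members were 40 (6 h), 43 (22 h) and 12 (22 h against 6 h), beside 24.3%, 20.4% and 15.1% of all genes. Median centring in place of loess gave 1, 0 and 0 (27, 46 and 4 at an unadjusted limma p under 0.05), with a 6 h median of -0.386. Background from negative controls gave 23, 41 and 5, with a 22 h median of -0.516, and no background correction a 22 h median of -0.512. The deposited ratios gave 48, 48 and 17, with medians of -0.464 and -0.560, and the mean of a gene's probes a 6 h median of -0.248. Each slide fitted alone, with 4 arrays and no spread shared between the times, gave 50 and 12, beside 26% and 7.25% of all genes. Leaving out 1 array gave 17 to 47, 38 to 44 and 3 to 21 called members, and medians of -0.355 to -0.297, -0.452 to -0.265 and -0.252 to -0.0896. The shares of all genes called then were 13.7% to 26.6%, 10.4% to 20.1% and 8.4% to 14.5%. Without replicate 4 at both times (chosen after seeing the data) the counts were 41, 44 and 21 and the medians -0.374, -0.483 and -0.192. Without any single array, 16 of 40, 37 of 43 and 3 of 12 calls were kept. The cause of these changes was not tested.

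Same-numbered arrays deviated together with r of 0.22 to 0.53, but they share a dye orientation, and after removing the dye effect r was -0.10, 0.18, 0.11 and -0.30. The pairing was therefore not taken as established. With a fixed replicate block in place of dye, 45, 45 and 16 members were called, and PLK3 (both times), CENPO (6 h), CENPV and CENPE (between the times) were lost. A random replicate block (correlation 0.0539) gave 40, 43 and 14. Promoter motifs were not run, since no sequence table was used here.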
